A study of Drosophila melanogaster with 6 samples.

Results

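Klumpfuss (Klu) is a zinc-finger transcription factor of the WT1 type, and its binding was mapped by DamID in the fly midgut. Peaks listed with 5 genes for RNA-binding or mRNA-control proteins are described here: heph, msi, rin, clu and Tob. An entry was taken when its gene symbol matched one of these names exactly, capitals included. The rule found 6 distinct peaks among the 1122 of the coherent set, with 2 peaks in clu and 1 in each other gene. The same rule found 6 among the 1250 peaks of the semicoherent set, a second and larger list in the deposited tables. The genes were chosen by their being listed with Klu-Dam peaks in these same tables, and the counts, widths and positions below come from those peaks. All values of the 6 peaks are therefore a description, and none was tested.

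The series held 6 libraries. By the labels, flies of the 3 Klu-Dam libraries carried esgts, UAS-Flp and UAS-Klu Dam. Those of the 3 Dam-only libraries carried esgts, UAS-Flp and UAS-Dam control. The construct names in the methods of the study place Dam under a minimal heat-shock promoter and hold no UAS. All flies were kept at 18 °C, expression was induced by a temperature shift for 24 h, and by the labels DNA came from 30 to 40 midguts per sample, a range whose upper end is larger in the methods of the study. The age of the flies was not stated in the labels. The esg driver is active in the stem and progenitor cells of the midgut, and Flp removes a stop cassette ahead of Dam. That removal is permanent, so cells that descend from an Esg-positive cell keep the active construct. DNA was taken from whole midguts, and DamID reads carry no marker expression, so the labelled cell type could not be checked against its markers. By the labels each replicate set had its own isolation date, and date and replicate cannot be told apart. No Dam-only count was analysed here, so every level below is that of Klu-Dam reads and not a ratio over Dam-only.

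In DamID, a bacterial methylase (Dam) fused to a DNA-binding protein marks adenines of nearby GATC sites. Methylated fragments are then cut out and sequenced, and a peak is a run of GATC fragments with more Klu-Dam signal than Dam-only signal. The 5 genes act after transcription. RNA-binding proteins settle how a transcript is spliced, where it is kept, how often it is translated and how soon its poly(A) tail is removed. heph encodes the fly polypyrimidine tract-binding protein, an hnRNP that regulates splicing and translation, and its loss raises Notch activity in the wing. msi encodes Musashi, which represses translation of target mRNAs in sensory organ precursors. rin encodes Rasputin, the fly G3BP, a component of stress granules. clu encodes Clueless, which is needed for the normal placement of mitochondria and binds ribosomes and mRNA. Tob belongs to the BTG/Tob family of antiproliferative proteins, whose mammalian members bring the CCR4-NOT deadenylase to mRNAs.

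The DNA under 3 of the peaks is shown because these peaks were the highest in CPM (heph), the highest per kb (Tob) and the lowest on both scales (rin). Each window is 300 bases of the plus strand of Release 6 (dm6), laid around a GATC site inside the peak and free of annotated UTR. GATC sites are in capitals, and methylated fragments begin and end at them.
heph chr3R:31991095-31991394: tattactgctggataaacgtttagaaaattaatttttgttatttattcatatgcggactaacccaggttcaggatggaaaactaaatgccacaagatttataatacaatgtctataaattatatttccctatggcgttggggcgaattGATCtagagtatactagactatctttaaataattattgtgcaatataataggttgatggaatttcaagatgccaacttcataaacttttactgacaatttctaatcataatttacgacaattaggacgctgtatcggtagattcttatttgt
Tob chrX:16080455-16080754: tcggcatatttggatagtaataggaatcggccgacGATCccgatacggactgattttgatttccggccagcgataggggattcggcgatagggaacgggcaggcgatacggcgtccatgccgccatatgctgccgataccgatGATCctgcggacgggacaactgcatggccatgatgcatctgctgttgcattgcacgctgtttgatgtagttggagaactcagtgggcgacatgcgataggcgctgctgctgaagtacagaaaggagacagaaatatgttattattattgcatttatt
rin chr3R:13648332-13648631: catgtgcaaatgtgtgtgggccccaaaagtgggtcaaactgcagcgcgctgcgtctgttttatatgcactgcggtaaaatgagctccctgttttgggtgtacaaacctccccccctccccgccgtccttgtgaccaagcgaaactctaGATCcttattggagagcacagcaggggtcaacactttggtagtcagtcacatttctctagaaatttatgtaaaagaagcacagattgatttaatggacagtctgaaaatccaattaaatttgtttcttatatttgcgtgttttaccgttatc
The Tob window held 2 GATC sites and the heph and rin windows 1 each. The heph window was the poorest of the 3 in G and C (30.3%), against 50.7% for Tob and 44.3% for rin. Over whole peaks the GC content was 45.4% for heph, 52.2% for Tob and 40.9% for rin, beside a median of 45.4% (quartiles 42.3% and 49.1%) over all coherent peaks.

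The 6 peaks fell in different places of their genes, and all 6 lay wholly inside the gene they were listed with. Of all coherent peaks, 54.6% lay wholly inside a gene listed with them. The listed distance was 0 for each of the 6, so none was near the limit of 2000 bp at which the authors stopped listing genes. Each peak began and ended at GATC sites, and places are given on Release 6 with positions counted from 1.

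heph (FBgn0011224) is on the minus strand of chromosome 3R, from 31846987 to 32015520, with 25 transcripts and 9 transcript starts in the reference annotation. Its peak covered 1737 bp at chr3R:31989729-31991465 and was made of 6 GATC fragments of 131 to 507 bp. The whole peak was intronic in heph, 1813 bp downstream of the nearest heph start. Its midpoint lay 24923 bp from the first start, 14.8% of the way along the gene. This share holds for the reference annotation only, because the deposited entry ran heph from 31846987 to 31993278. A further gene, CG2003, lies in that intron on the opposite strand, and its exons took up 68.0% of the peak. The tables listed the peak with both genes at a distance of 0, so the reads cannot be assigned to one of them.

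msi (FBgn0011666) is on the plus strand of 3R, from 25516118 to 25608423, with 7 transcripts and 4 starts. Its peak was the widest of the 6, 2411 bp at chr3R:25554093-25556503, with only 3 GATC fragments of 522 to 1318 bp. It was wholly intronic, 39180 bp from the first start (42.4% of the gene) and 19775 bp from the nearest one. A long non-coding RNA gene, lncRNA:CR46100, had exons over 10.1% of the peak, although the tables did not list it there.

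rin (FBgn0015778) is on the plus strand of 3R, from 13647004 to 13654527, with 4 transcripts and 2 starts. Its peak of 739 bp at chr3R:13648227-13648965 was the only one of the 6 that held a start of its own gene. The second start of rin lay inside it, with 80.5% of the peak in intron and 19.5% in 5′ UTR. It had 3 GATC fragments of 20 to 464 bp. The tables also listed this peak with sqd, which encodes the hnRNP Squid, at a distance of 1922 bp.

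clu is on the plus strand of 2R, from 16186584 to 16194277, with 2 transcripts and 2 starts, and carried 2 peaks. Peak 1 covered 1714 bp at chr2R:16189482-16191195 and was 94.3% coding sequence, with its midpoint 48.8% of the way along the gene. Peak 2 covered 2014 bp at chr2R:16192221-16194234, and 57.9% of it was 3′ UTR, 32.4% coding sequence and 9.48% intron. Exons of caly, a gene not listed with the peak, overlapped 8.59% of peak 2. A gap of 1025 bp separated the peaks, and each was made of 4 GATC fragments. Of all symbols listed in the coherent set, 10.5% had 2 or more peaks.

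Tob (FBgn0028397) is on the minus strand of X, from 16074717 to 16091495, with 4 transcripts and 3 starts. Its peak was the narrowest, 602 bp at chrX:16080455-16081056, yet it was made of 6 GATC fragments of 6 to 392 bp. Of the peak, 83.7% was coding sequence of Tob and 16.3% intron, 6333 bp downstream of the nearest Tob start. The microRNA gene mir-4958 overlapped 22.3% of the peak and was listed with it too. Tob thus had as many fragments as heph in a much narrower peak, while msi had the fewest fragments, along with rin, in the widest one.

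**Figure D1:**
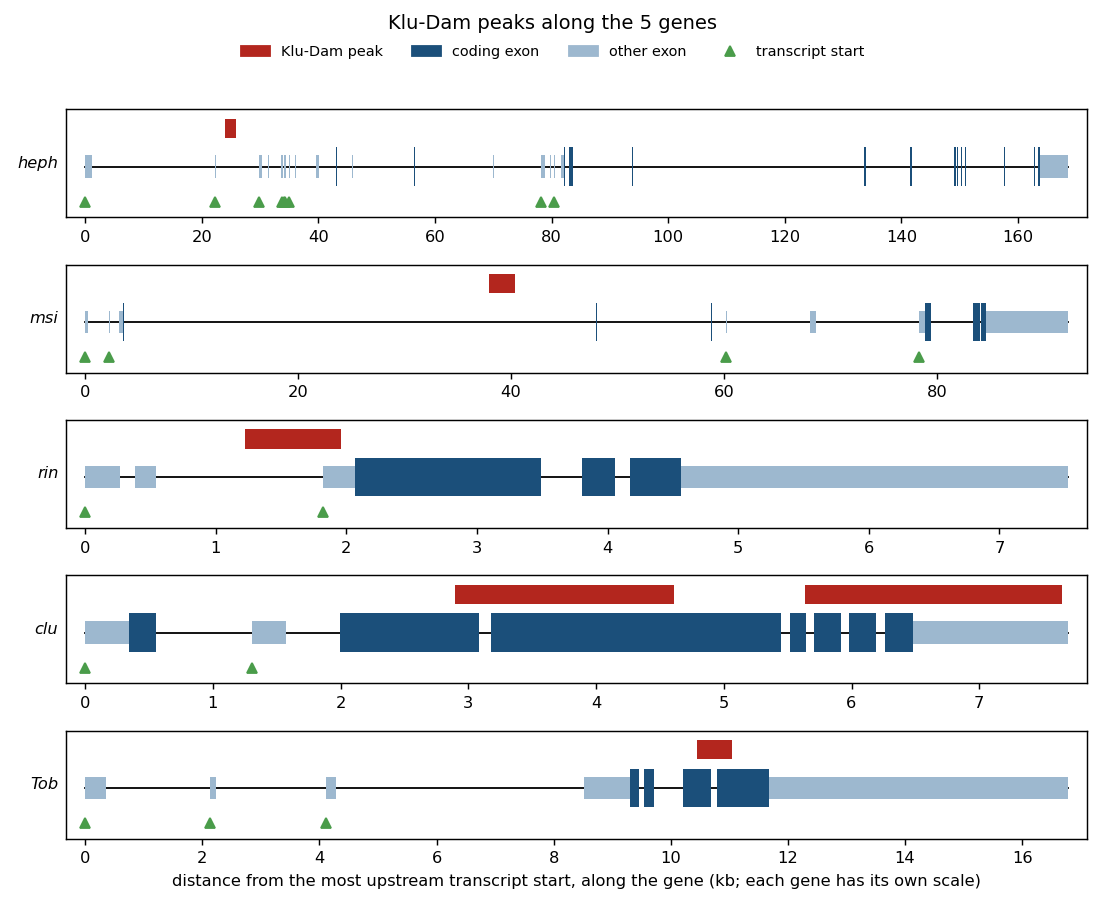
Each row is 1 gene, drawn along its own direction of transcription from its most upstream transcript start (x axis, kb, a separate scale per gene), with coding exons, other exons, transcript starts and Klu-Dam peaks. The heph and msi peaks are in introns, the rin peak covers the second start, clu carries 2 peaks and the Tob peak is over coding exons.

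Set against all coherent peaks by the feature at the midpoint, the 6 peaks were spread over 4 classes. Coding exons held 2 of 6 midpoints against 26.9% of all peaks, promoters (within 500 bp of a transcript start) 2 against 26.7%, introns or non-coding exons 1 against 29.8% and 3′ UTRs 1 against 9.98%. The classes count any gene at that base. The coding exon under the heph midpoint belonged to CG2003, and the Tob midpoint counted as promoter through the start of mir-4958. With 6 peaks these counts describe the set and no more.

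Read counts covered a wide range. Levels are given as CPM, which here means reads in the peak per 1000000 reads in all coherent peaks of that library. The 3 Klu-Dam libraries held 18287201 to 19521921 such reads, or 53.8% to 55.9% of the library totals, and the median coherent peak stood at 155 CPM (quartiles 67.4 and 504). The peak listed with heph, the PTB gene, and with CG2003 was the highest of the 6. It held 21839, 22466 and 17510 reads in replicates 1, 2 and 3, or 1119, 1229 and 954 CPM. The mean was 1101 ± 138 CPM (SD, n = 3), rank 164 of 1122, with 85.4% of coherent peaks below it. Replicate 3 was the lowest of the libraries and, in CPM, replicate 2 the highest. Scaled by the median ratio over peaks, replicate 1 was higher than replicate 2 (1188 against 1161).

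The Tob peak came next. It held 8267, 8042 and 6421 reads, or 423, 439.8 and 350.0 CPM in replicates 1 to 3. Its mean was 404 ± 47.8 CPM (SD, n = 3), rank 319. Replicates 1 and 2 were close together and replicate 3 was lower. Both peaks were above the median of all coherent peaks in every Klu-Dam library.

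By mean CPM the clu peaks stood on either side of that median, but in replicate 3 both were below it, with 2931 reads in peak 2 against 3026.5 in the median peak. Peak 2, toward the 3′ end of the gene, held 4848, 4953 and 2931 reads, or 248, 271 and 159.8 CPM (mean 226 ± 58.7, SD, n = 3, rank 470). Peak 1, in coding sequence, held 1428, 1606 and 1139 reads, or 73.1, 87.8 and 62.1 CPM (mean 74.3 ± 12.9, SD, n = 3, rank 809). The peaks of this one gene did not overlap in level. Peak 2 held 3.39, 3.08 and 2.57 times the reads of peak 1 in replicates 1 to 3 (mean 3.02 ± 0.415, SD), though peak 2 had the largest spread between libraries of all 6 peaks, with a coefficient of variation (CV) of 26.0%.

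The msi peak was the steadiest of the 6. It held 2113, 1878 and 1670 reads, or 108, 103 and 91.0 CPM in replicates 1 to 3. The mean was 101 ± 8.79 CPM (SD, n = 3), with a CV of 8.73% and rank 722. Unlike the other peaks it was highest in replicate 1 in CPM. When reads were scaled by the median ratio over peaks, heph, clu peak 2 and Tob were highest in replicate 1 too. Counting error alone would give a CV of 2.30% at this depth. That figure assumes independent reads, which amplified DamID reads are not, so it covers counting error only.

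The rin peak was the lowest. It held 480, 575 and 390 reads, or 24.6, 31.4 and 21.3 CPM in replicates 1 to 3. The mean was 25.8 ± 5.19 CPM (SD, n = 3), rank 1074, with 4.28% of coherent peaks below it. Its CV was 20.2%, against 4.56% from counting error alone. The lowest count of any coherent peak in any library was 65 reads.

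**Figure D2:**
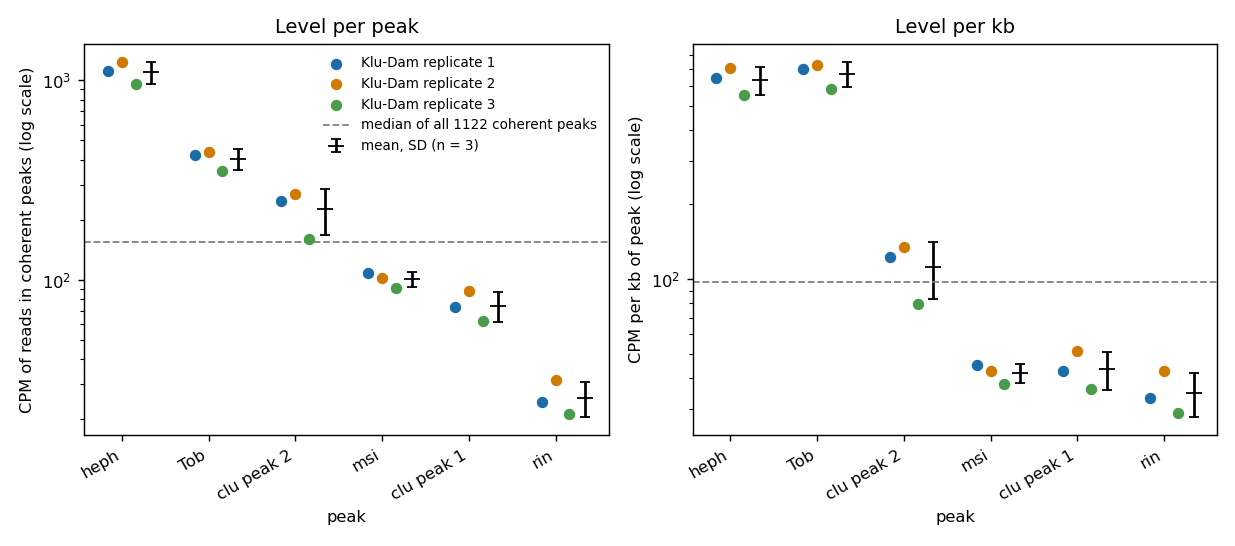
CPM (left) and CPM per kb of peak (right) for the 6 peaks, both on log axes, with 1 point per Klu-Dam library, the mean with SD (n = 3), and the median of all 1122 coherent peaks as a dashed line. heph, Tob and clu peak 2 are above the median on the left (means of 1101, 404 and 226 CPM against 155), and per kb Tob and heph stand apart from the other 4.

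By mean CPM the order was heph, Tob, clu peak 2, msi, clu peak 1 and rin. It held in each of the 3 libraries, and each gap between neighbours was larger than the sum of the SDs of those neighbours. The ratio was 2.72 ± 0.0761 for heph over Tob, 1.84 ± 0.307 for Tob over clu peak 2, 2.23 ± 0.445 for clu peak 2 over msi, 1.37 ± 0.175 for msi over clu peak 1 and 2.90 ± 0.0934 for clu peak 1 over rin (mean and SD of the library ratios, n = 3). From the top to the bottom of that order the levels differed 45.5-fold, 39.1-fold and 44.9-fold in replicates 1 to 3.

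**Figure D3:**
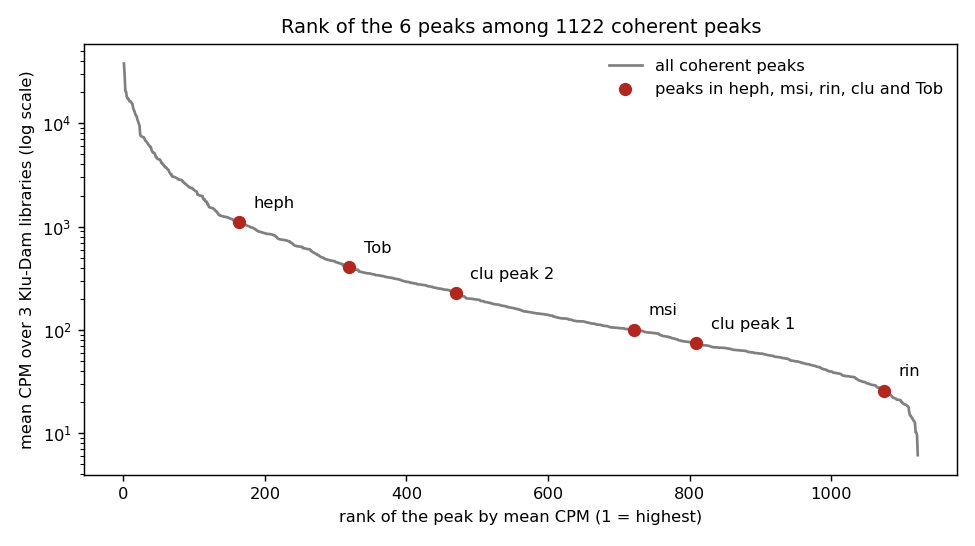
Mean CPM over the 3 Klu-Dam libraries (y axis, log scale) against rank (x axis, 1 = highest) for all 1122 coherent peaks, with the 6 peaks marked. They run from rank 164 for heph to rank 1074 for rin.

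Wide peaks take more reads, so levels were also divided by peak width. The widths differed 4.005-fold between msi and Tob. Per kb, Tob was first. It stood at 703, 730.5 and 581 CPM per kb in replicates 1 to 3, against 644, 707 and 549 for heph. The ratio of Tob over heph was 1.06 ± 0.0298 (SD, n = 3) and above 1 in each library, although their means of 672 ± 79.5 and 634 ± 79.4 CPM per kb differed by less than either SD. They ranked 143 and 151 per kb. clu peak 2 followed at 112 ± 29.2 CPM per kb (rank 509), with heph 5.80 ± 0.973 times as high.

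The 3 lowest peaks were close together per kb, with means that differed by less than the sum of their SDs. clu peak 1 averaged 43.4 ± 7.53 CPM per kb, msi 41.7 ± 3.64 and rin 34.9 ± 7.03 (SD, n = 3 each). clu peak 1 was above msi in only 1 of 3 libraries. rin was the lowest of the 3 in each library, at 33.3, 42.5 and 28.8 CPM per kb in replicates 1 to 3, against 44.9, 42.6 and 37.8 for msi. Dividing by the number of GATC fragments in place of kb put msi at rank 520 of 1122, against rank 909 per kb, and put Tob at rank 322 against 143. heph changed little, with rank 148 per fragment.

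As a set the 6 peaks lay in the middle of the coherent peaks. Their median level was 163 CPM, against 155 CPM for the other 1116 peaks, and per kb it was 77.9 against 97.6. Above the median of all peaks were 3 of 6 peaks in CPM and 3 of 6 per kb. Together they held 0.200%, 0.216% and 0.164% of the reads in replicates 1 to 3, while they made up 0.535% of the peaks by number. Reads were spread very unevenly over peaks. The highest count of any coherent peak was 947808 reads, against library medians of 2783.5 to 3026.5. A typical peak therefore holds less than an equal share of the reads, and the lower share does not set these 6 peaks apart. The median CV over the 3 libraries was 15.0% for the 6 peaks and 16.7% for the others, and the direction of this difference turned without replicate 1. It was 21.02% for the 6 peaks against 15.7% for all coherent peaks without replicate 1, 11.9% against 18.4% without replicate 2 and 6.37% against 10.1% without replicate 3.

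In replicate 3 each of the 6 peaks had its lowest CPM, while 39.7% of all coherent peaks were lowest there. The count remained 6 of 6 when reads were scaled by library totals (43.1% of all peaks) or by the median ratio over peaks (42.8%). On the log2 scale, replicate 3 over replicate 1 was −0.23 for heph, −0.25 for msi, −0.21 for rin, −0.24 for clu peak 1, −0.64 for clu peak 2 and −0.28 for Tob. The median over all coherent peaks was 0.11 with an SD of 0.61, so the 6 values lay below the median but within 1 SD of it, clu peak 2 excepted. The part of the isolation date or of the library in this was not tested.

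**Figure D4:**
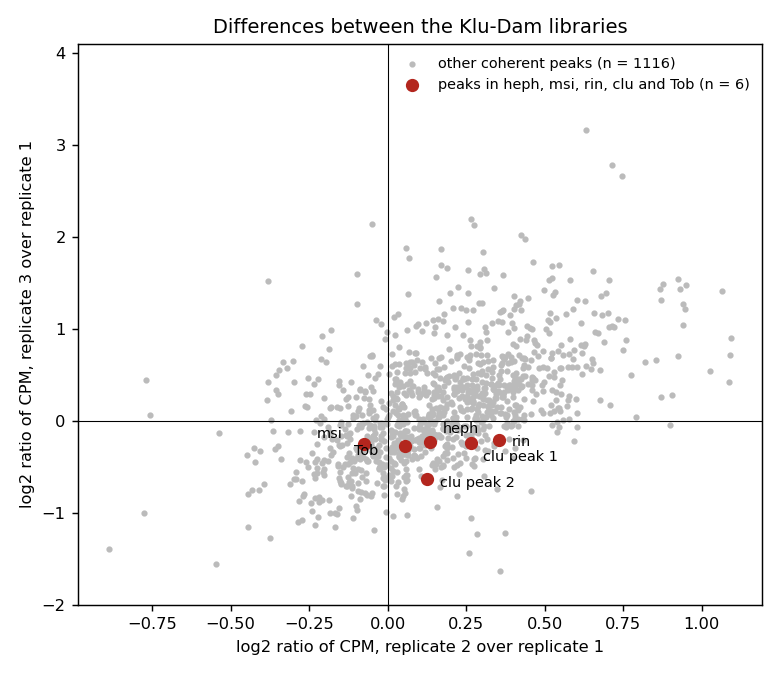
Log2 ratio of CPM in replicate 2 over replicate 1 (x axis) and in replicate 3 over replicate 1 (y axis), with the 6 peaks in red and the other 1116 coherent peaks in grey. The 6 peaks are all below 0 on the y axis, with clu peak 2 lowest at −0.64, and the median of all peaks is 0.11.

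All 6 peaks were also in the semicoherent set with the same edges and the same reads. Of all coherent peaks, 78.7% had the same edges in both sets. Scaled to the reads in that larger set, heph stood at 1019.7 ± 135 CPM and rin at 23.9 ± 4.96 CPM (SD, n = 3).

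Names and identifiers did not always point to the same gene. The tables paired clu with FBgn0264442, which in the reference annotation is ab on another chromosome arm with clu as an older name. The peaks lie in the gene FBgn0034087, the reference clu. Entries spelled Msi carried the identifier of msi but lay at Adgf-A2 on 3L, with 2 peaks at 45.9 ± 2.60 and 1476 ± 275 CPM (SD, n = 3), and an entry for rasp on 3L carried the identifier of rin (141 ± 32.3 CPM). None of these was counted. The peak at 1476 CPM was above all 6 peaks, so a match by identifier or without regard to capitals would give msi a level many times its own. Of 1660 distinct symbol and identifier pairs with the identifier in the reference, 44 (2.65%) had the identifier of a gene in another place.

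The WT1 and EGR families of zinc-finger proteins bind GC-rich sites that share the core GTGGGNG, where N is any base. This core was searched in the 6 peaks on both strands. The paper scanned its peaks with published motif matrices for Klu itself. Those matrices were not used here, so the counts below are not a Klu motif result. Matches were in 3 of 6 peaks, against 65.2% of all coherent peaks. heph held 4 matches, Tob 1 and clu peak 2 held 2, and msi, rin and clu peak 1 held none. At 4 or more matches heph was in the upper 7.31% of coherent peaks. The matches of heph and Tob are shown because these are the peaks with the highest levels. Each is given with the motif in capitals and 11 bases on either side, on the plus strand of Release 6, and the coordinates are those of the motif.
heph chr3R:31990095-31990101: aggcctatattGTGGGAGatattcagcga
heph chr3R:31990458-31990464: ccctagttattGTGGGGGaagggcaaaag
heph chr3R:31990506-31990512: taaccctcagtGTGGGTGttagcagcgca
heph chr3R:31990638-31990644: ctcctcttgtgGTGGGCGttttagtaacg
Tob chrX:16080679-16080685: tggagaactcaGTGGGCGacatgcgatag
The 4 heph matches lay in the part of the peak that CG2003 exons cover, and the Tob match lay in Tob coding sequence. Of genome windows as wide as each peak, 57.5% held a match at the width of heph, 26.7% at that of Tob, 62.6% at that of clu peak 2, 68.6% at that of msi, 31.6% at that of rin and 57.1% at that of clu peak 1. In the central 500 bp, 2 of 6 peaks held a match, against 27.7% of coherent peaks. A match is a run of letters and no evidence of binding.

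Other genes of RNA control were looked up in a list of 69, in which the 5 genes were not included. In the coherent set 15 of 69 (21.7%) were listed with a peak, against 9.48% of all annotated genes and 11.3% of protein-coding genes. The 15 include sqd, whose only listed peak is the rin peak, at a distance of 1922 bp. This entry is therefore not separate from the described peaks. The list was chosen with earlier results of these data known, so its share is a description and no excess was tested. Long genes have more room for peaks. The median length was 7085 bp for the 69 genes and 2166 bp for all protein-coding genes, and the part of length in the difference was not tested. The 5 described genes had a median length of 16779 bp. Of the 15 genes, 13 had a listed distance of 0, and 15 were listed in the semicoherent set.

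Counts by role are small and stand beside the same shares, 9.48% of all annotated genes and 11.3% of protein-coding genes. Differences between roles were not tested. By role, 4 of 10 deadenylation genes were listed, namely Not1, twin, Rga and Rcd-1, subunits of the CCR4-NOT complex. Of these 4, 3 had a listed distance of 0. Among hnRNP and splicing genes 3 of 10 were listed (sqd, Syp and mub), sqd through the rin peak alone. Among translational regulators 3 of 18 were listed (pum, cup and Imp). Listed too were 2 of 8 stress granule and poly(A)-binding genes (Atx2 and tyf) and 3 of 11 decapping and decay genes (tral, DCP2 and pcm). None of the 4 genes grouped under mitochondrial mRNA (larp, bsf, Pink1 and park) and none of 8 small RNA genes was listed.

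The highest peak of each of these 15 genes had a median of 273 CPM, and 10 of 15 were above the median of all coherent peaks. A gene with several peaks enters with its highest, which raises these figures. The median is the mean level of the Imp peak, which stood at 142, 159 and 518 CPM in replicates 1 to 3 (SD 213, n = 3). cup, whose protein binds eIF4E and represses translation, was far above the rest. Its peak at chr2L:6667407-6669824 stood at 9307, 11573 and 18149 CPM in replicates 1 to 3 (mean 13009.7 ± 4593, SD, n = 3, rank 16), highest in replicate 3, where all 6 described peaks were lowest. Its other peaks were at 102 ± 11.2 and 208 ± 30.1 CPM. Atx2, the fly Ataxin-2, followed at 596, 776 and 866 CPM (mean 746 ± 137). DCP2, the catalytic decapping enzyme, stood at 574, 593 and 650 CPM (mean 606 ± 39.5). Not1, the scaffold of CCR4-NOT, stood at 528, 514 and 404 CPM (mean 482 ± 67.8). The other 11 ran from 433 ± 63.7 CPM for tyf to 25.8 ± 5.19 CPM for sqd, whose peak is the rin peak.

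For each of the 5 genes, the coherent peak closest in level was sought by Euclidean distance between log2 CPM over the 3 Klu-Dam libraries, taking the highest peak of the gene. It was a peak of Deaf1 for heph (distance 0.10), Prosbeta6 for msi (0.07), dx for rin (0.19), hth for clu peak 2 (0.13) and a peak 1964 bp from Act87E for Tob (0.06). With 3 libraries such a likeness mainly reflects the level. The Deaf1 peak was also listed with Fibp, and the Prosbeta6 peak with Su(P), CG4098 and CG32164. The Deaf1 peak held 22186, 23956 and 17102 reads, against 21839, 22466 and 17510 for heph, and the dx peak held 533, 619 and 401 reads, against 480, 575 and 390 for rin.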

How the data were processed

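DamID was analysed from the peak tables of 3 Klu-Dam libraries. Each deposited table holds whole-number counts of reads in every peak, which the authors did not divide by depth, width or Dam-only signal. As the paper's methods describe, reads were aligned to dm6 with bowtie2 inside damidseq_pipeline, peaks were called on log2 ratios over Dam-only, and genes were attached with a script of the authors. The labels name HOMER without a version. Which rule made the coherent and semicoherent sets is not given in the sources used here. The libraries held 18287201 to 19521921 reads in coherent peaks.

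Entries were reduced to distinct peaks, and counts were divided by the reads in all peaks of the set (CPM). All 1122 coherent peaks began and ended on GATC sites of the reference. Semicoherent starts were moved back by 1 bp for 998 peaks and 2 bp for 252. Features came from the Ensembl annotation of Release 6, and motifs and sequences from the RefSeq genome of the same release. Overlap needed 1 bp.

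The 5 genes and the list of 69 were chosen with earlier results of these data known. Of the list, all 69 symbols were matched, 2 of them under another name. Named genes were the 5 genes, other genes listed with their peaks, and listed genes of the 69 with values for the 4 highest by mean CPM. The closest peak by log2 distance was named with the genes listed with it. Added to these after their values were seen were tyf, Imp and the peaks that carry the identifiers of msi and rin. No test across peaks was run, because the comparison with Dam-only that had been planned needs Dam-only counts, and these were not analysed here. Alternatives were library totals, median-ratio scaling, leaving out each replicate, reads per GATC fragment, the semicoherent set, listed distance 0, gene overlap, any base of a peak and the central 500 bp. Matching by identifier and single-library ranks were added after seeing the data. 0 columns of sample values were left out. Ranks, median-ratio scaling, motif matches and the GATC fragments and edges of peaks were tested on simulated data. Python 3.11.15, numpy 2.4.6, pandas 2.3.3 and matplotlib 3.10.9 were used.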

Additional observations from a re-analysis of the deposited data

How the results depend on the processing

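No paired analysis was possible because only Klu-Dam libraries were counted in the tables used here. Scaling by library totals in place of reads in peaks set the mean levels at 603 for heph, 222 for Tob, 124 for clu peak 2, 55.2 for msi, 40.8 for clu peak 1 and 14.1 CPM for rin, with a larger denominator by construction. Median-ratio scaling moved no mean by more than its SD. Ranks per GATC fragment in place of ranks per kb were 520 for msi, 707 for clu peak 1, 364 for clu peak 2 and 322 for Tob. The median CV of the 6 peaks ranged from 6.37% without replicate 3 to 21.02% without replicate 1, where all coherent peaks had 10.1% and 15.7%. By any base, 4 peaks touched a coding exon, against 2 by midpoint. By identifier, 9 peaks were found as the tables pair names and 7 as the reference does. Each of these counts takes in the Msi and rasp entries, and the 7 leave out the clu peaks. Peaks were taken as called, and amplified reads are not independent molecules.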
